A study of Saccharomyces cerevisiae with 10 samples.

Results

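The 2 arrays described here hold the state of budding yeast, *Saccharomyces cerevisiae*, before a shift to lower osmolarity, on 1 array of the wild type and 1 array of a strain labelled as a PPT1 deletion (delPPT1 in the titles and ppt1 in the sample descriptions, called labelled ppt1 below). They are 2 of the 10 2-colour arrays of a time course in which total RNA of 1 sample was hybridised against a reference. The other 8 arrays came from after the shift (7, 16, 30 and 60 min in the wild type; 7, 15, 30 and 60 min in the strain labelled ppt1), and the 16 and 15 min arrays were taken as 1 time. The strain background, the medium before and after the shift, and what RNA the reference was made of are not stated in the sources. Genes were taken as high before the shift where the log2 ratio to the reference, centred on the median of its array, was at or above 1 (2-fold) on both 0 min arrays, and as low where it was at or below -1 on both. The strains were taken to part at 0 min where their values differed by 1 or more. Of 5822 genes, 5792 had a value on both arrays, and 193 of these were high, 3 were low and 23 parted.

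Yeast in a medium of high osmolarity keeps its volume by making glycerol. The high-osmolarity glycerol (HOG) kinase pathway turns on the genes of glycerol synthesis, and a separate set of genes, controlled by the transcription factors Msn2 and Msn4, answers many stresses with chaperones, trehalose and antioxidant enzymes. A shift to lower osmolarity makes water flow in, glycerol is let out, and the cell wall integrity pathway, which ends in the kinase Slt2 and the transcription factor Rlm1, guards the wall. PPT1 encodes a serine/threonine phosphatase that acts on the chaperone Hsp90.

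The ratio was read as sample over reference on a log2 scale, which is likely but not stated, and every direction below would turn with the ratio. Each strain and time had 1 array, so no 0 min value has a replicate error, and p-values from the later arrays measure only the spread between arrays, which may be technical. Each ratio compares a gene with the reference and says nothing of which of 2 genes has more RNA. In cultures, fewer cells with a transcript and less of it per cell cannot be told apart. The arrays held 5440 to 5807 genes with a value, and 43.02% of the values on the wild type 0 min array were written with 4 decimals and ended in a 5, which no value on the other arrays did. How the values of that array were made is unknown here, and every strain difference at 0 min uses them. PPT1 itself was not lower under the label: it stood at -0.50 in the wild type and 0.10 on the array labelled ppt1 at 0 min, a difference as large or larger in 281 genes (4.85%). The stretch of the gene behind the spot is unknown here, so the arrays are called by their label.

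High genes far outnumbered low ones before the shift. The 193 high genes were 3.33% of those measured and the 3 low genes 0.0518%, and no gene was high on one array and low on the other. The wild type array alone had 286 genes at or above 1 and 26 at or below -1, and the array labelled ppt1 alone had 249 and 23. Across genes, which are not independent replicates and share a reference, the 2 arrays correlated with r = 0.829. Of the high genes, 29 were at or above 2 on both arrays and 5 at or above 3. The nearest genes inside the limit were BGL2 (1.01 and 1.31 in the wild type and labelled ppt1) and TEC1 (1.18 and 1.01), and the nearest outside were MFA2 (0.998 and 1.51) and ENO1 (1.14 and 0.992). The count depended on how the spread of the arrays was treated: quantile normalization over the 10 arrays, which gives every array the same spread, left 78 high and 5 low genes.

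**Figure D1:**
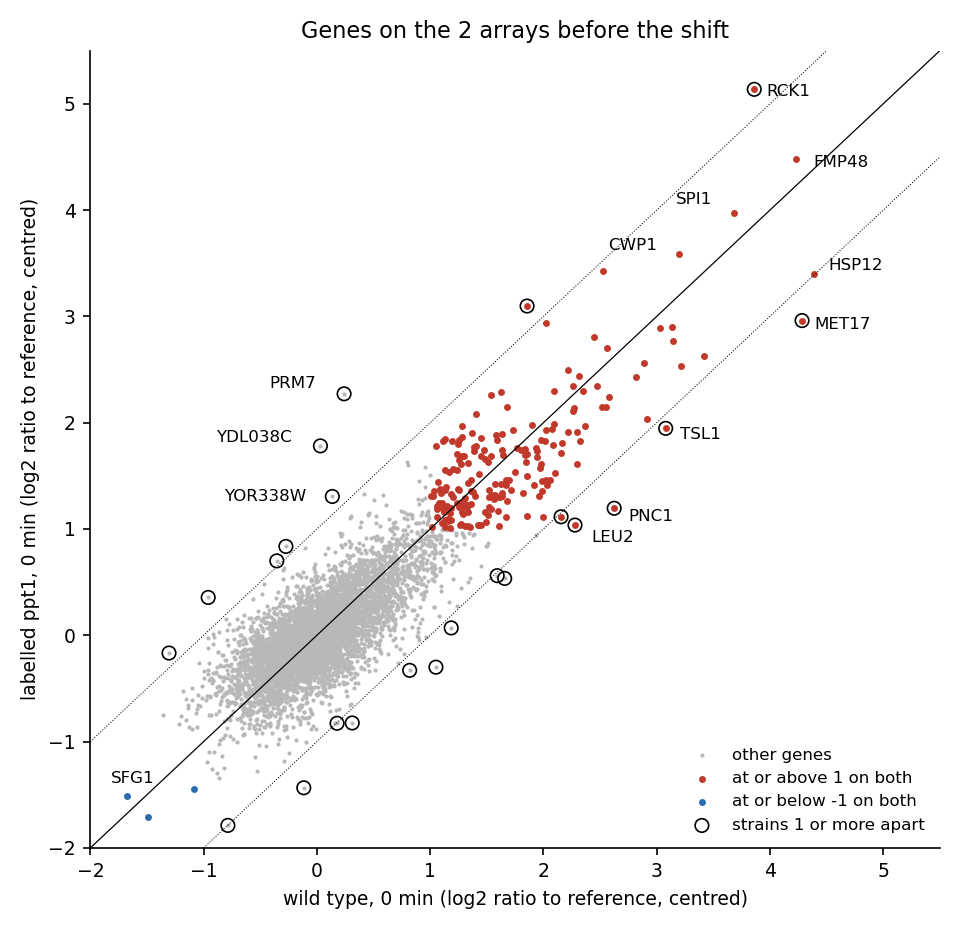
Centred log2 ratio to the reference at 0 min in the wild type (horizontal) and on the array labelled ppt1 (vertical), 1 point per gene with a value on both arrays. Red points are the 193 genes at or above 1 on both, blue points the 3 at or below -1 on both, rings the 23 genes whose strains differ by 1 or more (dotted lines), and the full line marks equal values. The red points reach 5.14 (RCK1), while no blue point is below -1.71.

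The 5 genes at or above 3 on both arrays were FMP48, RCK1, SPI1, HSP12 and CWP1. In the order of the times, FMP48, whose protein is found in mitochondrial preparations, read 4.23, 4.48, 2.69, 1.15 and 0.49 in the wild type and 4.48, 3.46, 3.04, 1.82 and 0.38 labelled ppt1. RCK1, a kinase that acts in the response to oxidants, read 3.86, 2.88, 1.01, -0.41 and -0.51 in the wild type and 5.14, 3.35, 1.48, 0.18 and -0.33 labelled ppt1. Both genes were far above the reference at 0 and 7 min and close to it at 60 min in both strains. HSP12, a small membrane-associated stress protein, read 4.39, 3.52, 2.21, 1.76 and -0.15 in the wild type and 3.40, 2.41, 1.36, 1.01 and -0.47 labelled ppt1, lower at every time under the label. SPI1, a cell wall protein with a lipid anchor, read 3.68, 2.58, 2.43, 1.75 and 0.90 in the wild type and 3.98, 3.32, 3.15, 1.90 and 0.94 labelled ppt1. CWP1, a cell wall mannoprotein, read 3.20, 3.19, 3.13, 2.59 and 2.06 in the wild type and 3.58, 3.24, 2.71, 2.38 and 1.93 labelled ppt1. CWP1 was thus still above 1 on both 60 min arrays, whereas the other 4 genes were not.

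The next genes by the lower of their 2 values were of mixed function. MET17, the enzyme that builds sulfide into homocysteine, read 4.28 in the wild type and 2.96 labelled ppt1 at 0 min. NCE103, carbonic anhydrase, read 3.13 and 2.90, and PRB1, the vacuolar proteinase B, 3.15 and 2.77. YPL088W, a putative alcohol dehydrogenase, read 3.03 and 2.89, and BDH2, a putative butanediol dehydrogenase, read 3.42 and 2.63. NCW2, a cell wall protein, read 2.88 and 2.57, and TPO4, a polyamine exporter of the plasma membrane, read 3.21 and 2.53. ADE2, ADE17 and SHM2 of purine and one-carbon metabolism complete the 15 and are described with their pathway. NCE103 was highest at 7 min, at 3.77 and 2.99, while each of the other genes named in this paragraph with values was highest at 0 min in both strains.

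**Figure D2:**
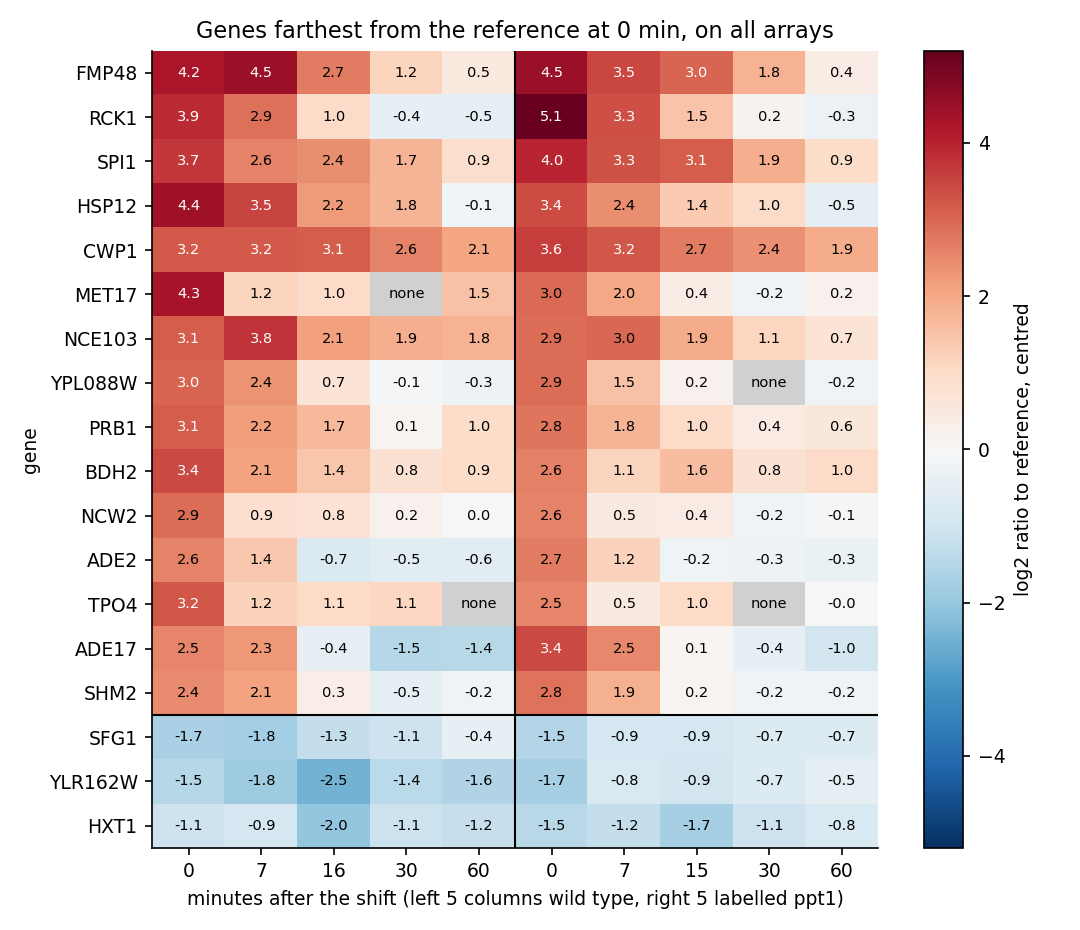
Centred log2 ratio to the reference (colour and number) on all 10 arrays for the 15 genes with the highest lower value at 0 min (above the line) and the 3 low genes (below it). Columns run by minutes after the shift, wild type on the left and labelled ppt1 on the right, and grey cells have no value. RCK1, HSP12, YPL088W, ADE2, ADE17 and SHM2 are among the genes below 0 in both strains at 60 min, while CWP1 stays at 2.06 and 1.93.

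In the list of the HOG pathway with glycerol metabolism, 5 of 22 genes with both values were high, against 3.33% of all genes, and the list's median was 0.26 in the wild type and 0.09 labelled ppt1. GPD1, the glycerol-3-phosphate dehydrogenase that starts glycerol synthesis, read 2.16, 1.09, 0.96, 0.91 and 1.60 in the wild type and 1.81, 0.18, 0.71, 0.71 and 1.03 labelled ppt1. GPP2, the phosphatase of the following step, read 2.09, 1.08, 0.13, -0.14 and -0.19 in the wild type and 1.79, 0.86, -0.22, -0.06 and -0.28 labelled ppt1. GPD1 was lowest at 30 min in the wild type and at 7 min under the label, and above those values at 60 min in both strains, whereas GPP2 was near the reference from 15-16 min on. The other high members at 0 min were GPD2, the second dehydrogenase isoform (1.53 and 1.69), PTP2, a phosphatase that acts on Hog1 (1.30 and 1.68), and DAK1, a dihydroxyacetone kinase (1.39 and 1.31). HOG1, the kinase itself, read 0.01 and 0.04, and STL1, a glycerol importer, read -0.89 and -0.74. With quantile normalization 3 of the 22 were high.

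Of 27 measured general stress genes, 17 were high before the shift (63%), against 3.33% of all genes. The medians were 1.43 in the wild type and 1.46 labelled ppt1 at 0 min. They stood at 0.585 and 0.456 by 7 min, and at 0.52 and 0.31 at 60 min. This list and those below were written with earlier results of these data known, so their counts are a description. Trehalose genes were among them: TSL1, a regulatory subunit of the synthase complex, read 3.08 and 1.95 at 0 min, TPS2, the phosphatase subunit, 2.22 and 1.91, and TPS1, the synthase subunit, 1.45 and 1.04. TSL1 read 1.77, 2.64, 2.57 and 2.64 at the later times in the wild type and 1.11, 2.55, 2.41 and 1.78 labelled ppt1, so its lowest value in both strains was at 7 min. HOR7, a small protein induced by high osmolarity, read 2.55 and 2.15, the disaggregase gene HSP104 2.11 and 1.53, and the small chaperone gene HSP26 1.63 and 2.29. CTT1, the cytosolic catalase, read 1.11 and 1.83. MSN4 itself, which is no member of the list, read 1.14 and 1.37. The lowest members were SIP18 (0.07 and 0.77) and GPH1, glycogen phosphorylase (0.17 and 0.46), so no member was below the median of either array. With quantile normalization 11 of the 27 were high.

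Cell wall genes were high to a like extent. Of 25 targets of the cell wall integrity pathway 15 were high (60%), against 3.33% of all genes. Their medians were 1.18 in the wild type and 1.33 labelled ppt1, and the values at 0 min ran from 0.145 to 3.98. SLT2, the kinase of the pathway, went from 2.22 and 2.50 before the shift to 0.04 and 0.23 on the last arrays. RLM1, its transcription factor, read 1.19 and 0.86, and FKS1, the main glucan synthase, read 0.20 and 0.145. The mannoprotein genes SED1 (2.10 and 2.30) and PST1 (1.45 and 1.69) and the chitin synthase gene CHS1 (1.63 and 1.33) were high on both arrays. PRM5 read 1.94 and 0.94 and was just short of the limit on the array labelled ppt1. The list's medians were 0.17 and 0.09 at 60 min, and with quantile normalization 6 of the 25 were high at 0 min.

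Targets of calcineurin, the calcium-dependent phosphatase that acts through the transcription factor Crz1, were split. Of 10 genes 4 were high, against 3.33% of all genes, and 3 were high with quantile normalization. CMK2, a calmodulin-dependent kinase, read 2.81, 0.69, 0.33, 0.15 and 0.32 in the wild type and 2.43, 0.46, 0.18, -0.03 and 0.40 labelled ppt1. PHO89, a sodium-phosphate cotransporter, read 2.02 and 2.94 at 0 min, YPS1, a cell surface protease, 2.27 and 2.14, and CRH1, a chitin-glucan crosslinker shared with the cell wall list, 1.18 and 1.33. ENA1, the sodium pump, read 0.11 and 0.20, and PMC1, the vacuolar calcium pump, 0.42 and 0.55. CMK2 and YPS1 were below 1 on every later array.

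Of 20 purine and one-carbon genes 10 were high at 0 min (50%), against 3.33% of all genes. The list's medians were 1.05 in the wild type and 1.07 labelled ppt1. ADE17, which carries out the last steps to IMP, read 2.53, 2.26, -0.43, -1.46 and -1.45 in the wild type and 3.42, 2.49, 0.08, -0.41 and -0.96 labelled ppt1. SHM2, the cytosolic serine hydroxymethyltransferase, read 2.45, 2.10, 0.33, -0.45 and -0.17 in the wild type and 2.81, 1.85, 0.16, -0.20 and -0.20 labelled ppt1. Both genes were high at 0 and 7 min and below the reference in both strains at 30 and 60 min. ADE2 read 2.56 and 2.70 at 0 min, MTD1, a folate dehydrogenase, 2.31 and 2.44, and GCV1 of the glycine cleavage complex 2.26 and 2.11. ADE1, ADE4, ADE57, ADE13 and GCV2 were the other high members, between 1.05 and 2.26. ADE16, the second isozyme of the ADE17 step, read -0.15 and -0.34, and IMD4, an IMP dehydrogenase, -0.41 and -0.09. After the shift the list's medians were 0.99 and 0.60 (7 min), 0.10 and 0.07 (15-16 min), and finally -0.14 and -0.09 (60 min), when GCV1 (0.13 and 0.17) and GCV2 (0.38 and 0.24) were above 0 in both strains, and with quantile normalization 6 of the 20 were high at 0 min.

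**Figure D3:**
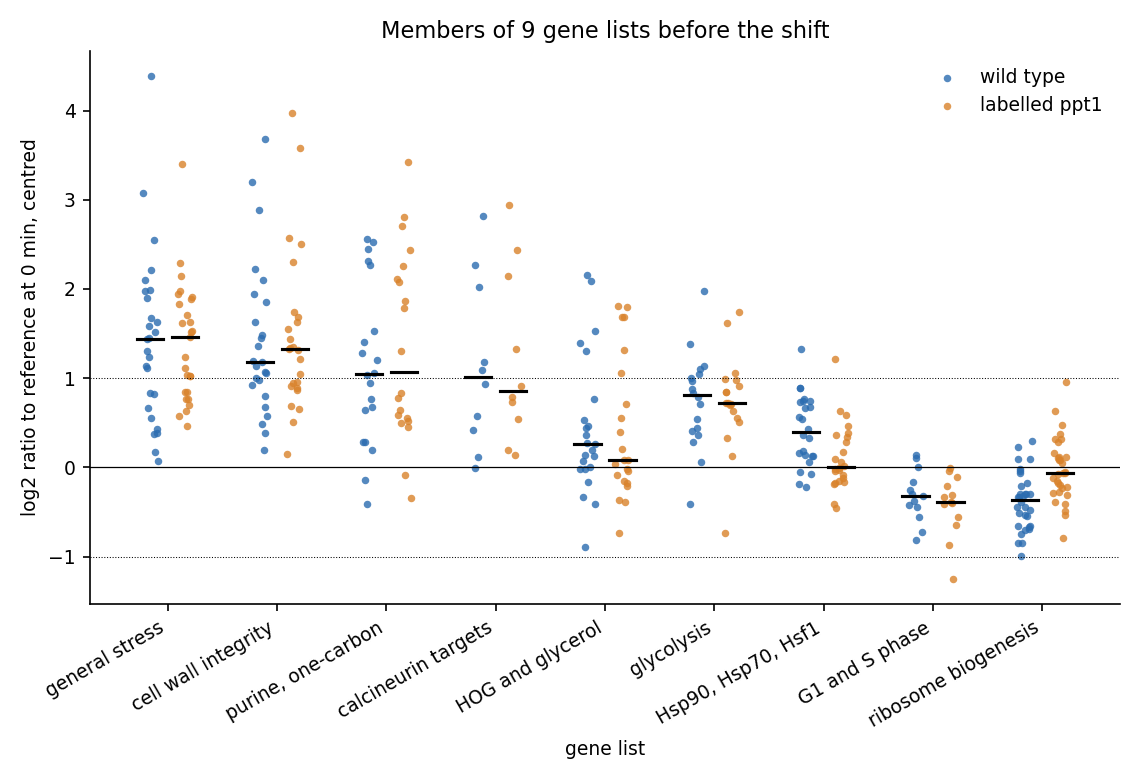
Centred log2 ratio to the reference at 0 min for the members of 9 gene lists, wild type in blue and labelled ppt1 in orange, 1 point per gene, with black bars at the medians and dotted lines at 1 and -1. The medians of the general stress, cell wall integrity and purine lists lie above 1 on both arrays, and those of the G1 and S phase and ribosome biogenesis lists lie below 0 on both.

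Among other lists, 3 of 18 glycolysis genes were high (16.7%), against 3.33% of all genes. They were GLK1, glucokinase (1.98 and 1.62), and the glyceraldehyde-3-phosphate dehydrogenase genes TDH1 (1.39 and 1.74) and TDH3 (1.10 and 1.06). TDH3 is near-identical to TDH2, and the related TDH genes may share signal. Of 42 amino acid synthesis genes 4 were high (9.52%), namely LEU2 (2.28 and 1.04) and the arginine genes ARG3 (1.82 and 1.33), ARG1 (1.995 and 1.12) and ARG4 (1.09 and 1.34). With quantile normalization 1 of the 18 glycolysis genes and 0 of the 42 amino acid genes were high, and with scaling to a common spread 2 and 2. MET17, MET6, the methionine synthase (2.02 and 1.46), and SAM2, an S-adenosylmethionine synthetase (1.56 and 1.28), were high among 21 sulfur genes. On the array labelled ppt1 at 0 min 18 of the 21 were lower, with a median difference of -0.41 against -0.004 over all genes. On the later arrays 0 of the 21 passed a test of the strain difference, which had a median of -0.04. AGA2, the agglutinin subunit of a cells (1.40 and 1.78), was the 1 high gene of 7 a-cell markers, and none of 4 alpha-cell markers was high, their values lying between -0.84 and 0.23. Of 35 lists, 20 held a high gene and 15 held none.

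Of the 193 high genes, 70 were in a list and 123 in none, and a few of the latter are given here, chosen after their values were seen. Phospholipid genes were among them: OPI3, a methyltransferase of phosphatidylcholine synthesis, read 2.35, 2.14, 1.55, 0.27 and -0.17 in the wild type and 2.30, 1.87, 1.27, -0.02 and -0.18 labelled ppt1. CHO1, phosphatidylserine synthase, read 1.85 and 1.70 at 0 min, INO1, inositol phosphate synthase, 1.99 and 1.35, and ITR1, an inositol transporter, 1.28 and 1.25. The aldehyde dehydrogenase genes ALD6 (2.27 and 2.35) and ALD4 (2.37 and 1.97, in the glyoxylate list) stayed high, the last arrays giving 1.71 and 1.13 for the former and 2.19 and 1.57 for the latter. The eisosome genes LSP1 (1.67 and 1.41) and PIL1 (1.59 and 1.30) were high as well, and LSP1 was at 1.73 and 1.49 on the last arrays. On the chromosomes, 186 high genes could be placed in the order of the RefSeq R64 genes, and 31 of them lay next to another high gene in 16 pairs, among them CWP2 with CWP1, YPS1 with YPS3, HSP150 with CIS3 and RCK1 with ARI1. Over the 10 arrays r was 0.34, 0.93, 0.73 and 0.82 for these named pairs in turn. These arrays include those at 0 min, on which both genes of a pair were chosen as high. That choice tends to raise r, so the values are a description. How many pairs the share of high genes alone would give was not worked out, so the count is not read as clustering. The spot sequences were not used here, so signal shared between neighbours was not tested.

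The 3 low genes were SFG1, YLR162W and HXT1. SFG1, a putative transcription factor of pseudohyphal growth, read -1.68, -1.75, -1.26, -1.09 and -0.42 in the wild type and -1.51, -0.92, -0.90, -0.71 and -0.73 labelled ppt1. YLR162W read -1.49, -1.84, -2.48, -1.40 and -1.56 in the wild type and -1.71, -0.81, -0.95, -0.69 and -0.49 labelled ppt1. HXT1, a low-affinity glucose transporter, read -1.09, -0.87, -1.99, -1.11 and -1.18 in the wild type and -1.45, -1.23, -1.73, -1.09 and -0.80 labelled ppt1. YLR162W was below -1 in the wild type throughout and above -1 on each later array labelled ppt1, while HXT1 varied around -1 in both strains. Just outside the limit were TDA6 (-0.97 and -1.19) and ERG3, a sterol desaturase (-0.96 and -1.10). Without centring 6 genes were low.

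The lists of the G1 and S phase, histones and ribosome biogenesis had medians below 0 on both arrays, with single members above 0, as did the 4 alpha-cell markers (-0.29 and -0.19) among others. The 13 genes of the G1 and S phase had medians of -0.32 in the wild type and -0.39 labelled ppt1, and the 8 histone genes of -0.27 and -0.28. The 32 ribosome biogenesis genes had medians of -0.36 and -0.06. On the array labelled ppt1 31 of the 32 were higher, with a median difference of 0.35 against -0.004 over all genes. Under no centring, scaling to a common spread and quantile normalization 31 were higher as well. NIP7 read -0.996 and -0.41, EBP2 -0.54 and 0.16, and NOP1, which methylates ribosomal RNA, 0.22 and 0.95, while RPA190 of RNA polymerase I was the exception at -0.70 and -0.79. On the 8 later arrays, 0 of the 32 passed a test of the strain difference, which had a median of 0.04. The 135 cytosolic ribosomal protein genes stood at medians of 0.01 and 0.11, and none was high or low.

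At later times fewer genes were far from the reference in the upward direction. The number of genes at or above 1 on both arrays of a time was, in the order of the times, 193, 68, 50, 37 and 27, and the number at or below -1 was 3, 5, 11, 13 and 14. Of the 193 genes chosen at 0 min, 55, 37, 27 and 17 were at or above 1 on both arrays of the 4 later times in turn. Their pair means had a median of 1.54 before the shift and of 0.91, 0.63, 0.42 and 0.36 afterwards. Genes chosen for being high on 2 arrays tend to read lower on others, so these counts against 0 min are a description. By 60 min, 86 of the 188 with both values lay within 0.5 of the median on both arrays, and 11 of the 193 were at or above 1 on every later array with a value.

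**Figure D4:**
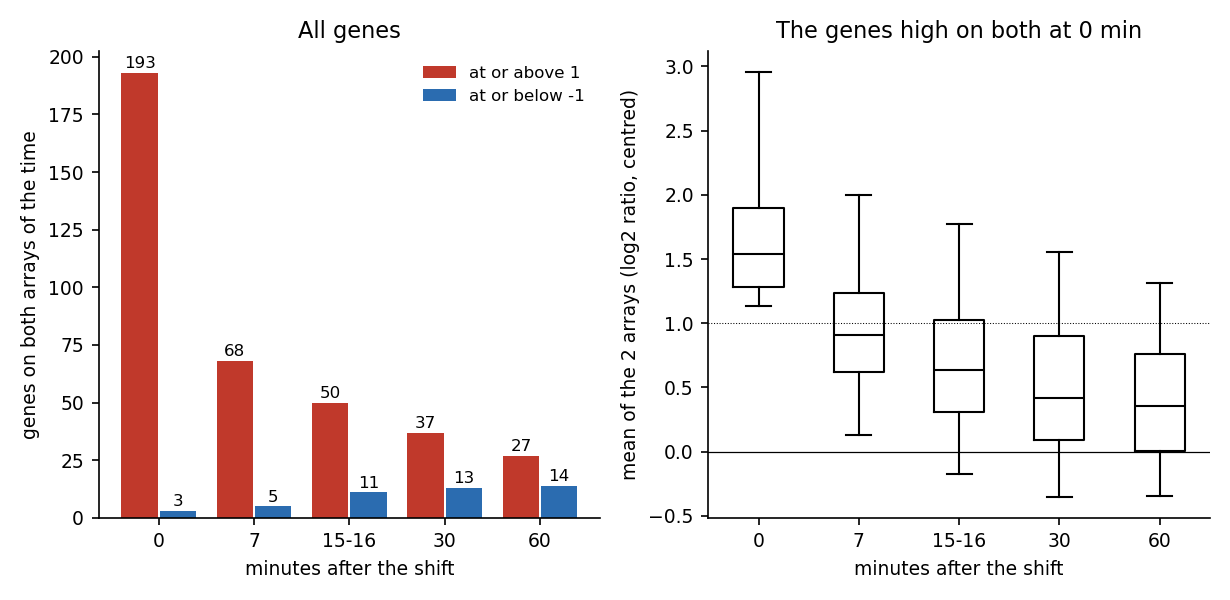
Left, number of genes at or above 1 (red) and at or below -1 (blue) in centred log2 ratio on both arrays of each time. Right, mean of the 2 arrays for the genes high on both at 0 min, with the median line, box of the middle quartiles and whiskers at the 5th and 95th percentiles. The red bars go from 193 to 27 and the median from 1.54 to 0.36.

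Whether the high genes went on changing was asked of the 8 later arrays alone, which played no part in choosing them. In limma's fit of time and strain, 54 of the 193 fell from 7 to 60 min (28%) and 0 rose at an adjusted p under 0.05, against 99 lower (1.7%) and 41 higher (0.704%) of 5821 genes. With quantile normalization the split over all genes was 81 lower and 63 higher. The high genes made up 54.5% of the 99. Their median change was -0.45, against -0.01 over all genes. At an unadjusted p under 0.05, 106 were lower and 8 higher. RCK1 fell by 3.53 ± 0.14 on the log2 scale (SE over 8 arrays; limma adjusted p = 1.58e-05), ADE17 by 3.58 ± 0.19 (adjusted p = 8.06e-05) and HSP12 changed by -3.28 ± 0.18 (adjusted p = 8.3e-05). OPI3 fell by 2.18 ± 0.13 and ADE13 by 1.97 ± 0.12, both with a limma adjusted p of 0.000119. Without either 60 min array 24 of the 193 fell, and without either 7 min array 35 did. ICY1, which did not pass (0.65 ± 0.14, limma adjusted p = 0.0538), passed as higher under 5 other settings, and GLK1, GPD1, YDL023C, GSY2 and TSL1 did so with quantile normalization alone.

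By list, purine and one-carbon genes fell most often between 7 and 60 min, with 10 of 20 passing and 0 rising, and a median of -0.87. Of all genes 1.7% fell and 0.704% rose. ADE1, of an earlier step, fell by 2.08 ± 0.16 (limma adjusted p = 0.000371) and SHM2 by 2.16 ± 0.15 (adjusted p = 0.000198). Of 25 cell wall integrity targets 9 fell, with a median of -0.62, among them SPI1 (-2.03 ± 0.20, limma adjusted p = 0.00111), CWP1 (-1.22 ± 0.15, adjusted p = 0.00353) and NCW2 (-0.71 ± 0.13, adjusted p = 0.0326). Without either 60 min array 2 of them fell, without the wild type 7 min array 3, and without the 7 min array labelled ppt1 4. With quantile normalization 6 of the 25 fell. Of 27 general stress genes 4 fell, with a median of 0.01. DDR48, a DNA damage-responsive protein, fell by 1.63 ± 0.13 (limma adjusted p = 0.000497), HSP26 by 1.19 ± 0.16 (adjusted p = 0.006) and HOR7 by 0.97 ± 0.12 (adjusted p = 0.00486), next to HSP12. Without the 7 min or the 60 min array labelled ppt1, 2 of the 27 fell, and without the wild type 60 min array 3 fell and 1, the hexokinase gene HXK1, rose. With quantile normalization 3 of the 27 fell and 3 rose (TSL1, GLK1 and GSY2). Of the HOG and glycerol list GPP2 alone fell, by 1.20 ± 0.14 (limma adjusted p = 0.00332), but without the wild type 60 min array 0 passed, and with quantile normalization GPD1 rose. None of the 3 low genes passed.

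The strains parted by 1 or more in 23 genes at 0 min, 9 higher (0.155%) and 14 lower (0.242%) on the array labelled ppt1. Later times had more such genes, the pairs of higher and lower counts being in turn 26 with 14, 55 with 9, 14 with 34 and 17 with 24. The strain difference had an SD over genes of 0.30 before the shift and of 0.30 to 0.34 after it. Of the 23, 7 were also high on both arrays, RCK1 and CPP3 being higher and PNC1, MET17, LEU2, TSL1 and GTO3 lower under the label. The nearest genes outside the limit were INA1 (a difference of 0.955) and SIR2 (0.947) upward and PRM5 (-0.996) and YBL111C (-0.988) downward. With each array scaled to a common spread 7 genes were higher and 3 lower.

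The largest differences upward were in PRM7 and YDL038C, which are neighbours and in some strains parts of 1 reading frame. PRM7 read 0.24, -0.99, -1.74, -2.79 and -3.28 in the wild type and 2.27, 0.24, -0.97, -1.68 and -1.74 labelled ppt1. YDL038C read 0.03, -1.35, -2.15, -3.19 and -3.58 in the wild type and 1.78, 0.10, -1.10, -1.78 and -2.03 labelled ppt1. Both were lower at each later time than at 0 min and higher under the label at all 5 times. AQR1, a multidrug and amino acid exporter, read -0.96, -1.15, -1.40, -2.10 and -2.77 in the wild type and 0.36, -0.56, -1.10, -1.43 and -1.98 labelled ppt1. IZH1, a membrane protein of zinc homeostasis, read -0.27, -0.39, -0.91, -0.65 and -0.61 in the wild type and 0.84, 0.43, -0.05, 0.12 and 0.33 labelled ppt1, with no overlap between the strains. The others were RCK1 (3.86 and 5.14), CPP3 (1.86 and 3.10), YOR338W (0.14 and 1.31), DHR2, a helicase of ribosome synthesis (-1.31 and -0.17), and HXT5, a hexose transporter (-0.35 and 0.70).

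The largest difference downward was in PNC1, the nicotinamidase of the NAD salvage pathway. PNC1 read 2.62, 1.74, 1.35, 1.80 and 1.30 in the wild type and 1.20, 0.29, 0.20, 0.54 and 0.40 labelled ppt1, so that every wild type value was above every value under the label. MET17 read 4.28, 1.16, 0.98 and 1.52 in the wild type, with none at 30 min, and 2.96, 2.02, 0.40, -0.17 and 0.22 labelled ppt1. LEU2, of leucine synthesis and a common marker gene, read 2.28, -0.45, -0.28 and -0.39 in the wild type, with none at 16 min, and 1.04, 0.06, 0.02, -1.44 and -0.62 labelled ppt1. For MET17 and LEU2 the later values of the strains overlapped. YLR345W read 1.05 and -0.30 at 0 min and lay between 0.56 and 0.94 on all later arrays, so it stood apart on 1 array alone. FRE1, a ferric reductase, read -0.79, -0.25, 0.02, 0.15 and 0.71 in the wild type and -1.79, -1.18, -0.83, -0.25 and 0.27 labelled ppt1. The others were THI73 (-0.12 and -1.44), YBL101W-A (0.82 and -0.33), RPM2 (0.31 and -0.82), TSL1 (3.08 and 1.95), the pyruvate carboxylase gene PYC1 (1.66 and 0.54), YMR085W (1.19 and 0.07), GTO3 (2.16 and 1.11), the peroxisomal citrate synthase gene CIT2 (1.59 and 0.56) and TUS1 (0.18 and -0.83).

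The 4 later pairs, which were not used to choose these genes, gave a test of the strain difference. The pairs are different times, and the labels name no separate cultures, so they may not be independent replicates of the strains. A difference between strains cannot be told apart here from one between cultures or series of arrays. In limma's fit 56 of 5822 genes passed, 25 higher (0.429%) and 31 lower (0.532%) under the label. Of the 9 genes higher at 0 min, 4 passed as higher, and all 9 estimates were above 0, with a median of 0.77. They were YDL038C (1.37 ± 0.11, SE over 4 pairs; limma adjusted p = 0.00409), PRM7 (1.16 ± 0.13, adjusted p = 0.00839), IZH1 (0.85 ± 0.09, adjusted p = 0.00839) and AQR1 (0.59 ± 0.11, adjusted p = 0.0471), although AQR1 turned to -0.06 with quantile normalization. Of the 14 genes lower at 0 min, 2 passed as lower, PNC1 (-1.20 ± 0.11, limma adjusted p = 0.00499) and FRE1 (-0.65 ± 0.12, adjusted p = 0.0471), while 11 estimates were below 0 and 3 above. Leaving out any of the 8 later arrays removes its pair from this comparison: 15 genes passed without either 7 min array, 3 without either 15-16 min array, 11 without either 30 min array and 3 without either 60 min array. YDL038C passed whichever array was left out, IZH1 was lost without the 15-16 or the 60 min arrays, PRM7 without the 30 or the 60 min arrays, PNC1 without the 15-16 min arrays, and AQR1 and FRE1 whichever array was left out. With quantile normalization YDL038C and PRM7 were no longer past the threshold.

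**Figure D5:**
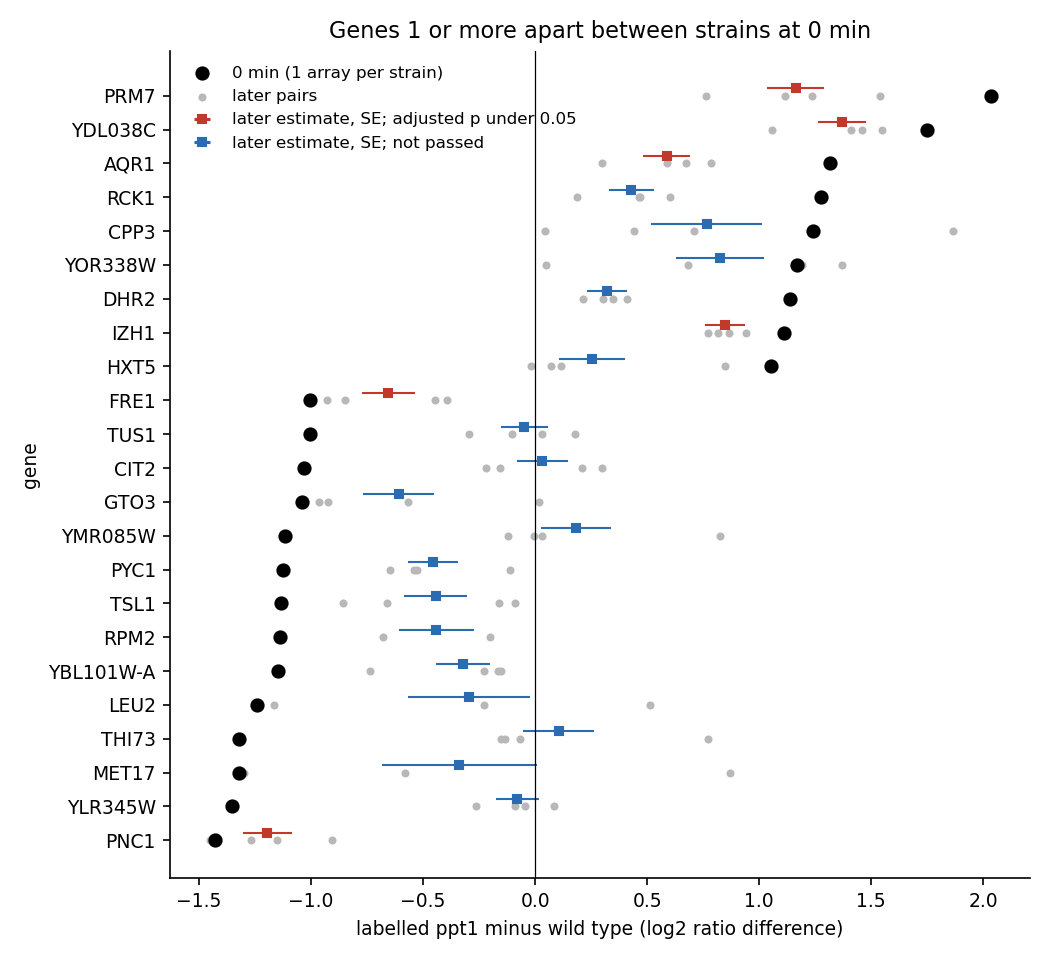
Difference in log2 ratio, labelled ppt1 minus wild type, for the 23 genes 1 or more apart at 0 min (black), at each later time (grey) and as the estimate of limma's fit to the later arrays with its SE (squares, red where the adjusted p was under 0.05). The 9 upper genes all have later estimates above 0, while CIT2, THI73 and YMR085W among the 14 lower genes do too.

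The same question was put the other way, from the later arrays to 0 min. Of the 25 genes that passed as higher later, 22 were also higher at 0 min (median difference 0.54, from -0.32 to 2.03). Of the 31 that passed as lower, 31 were lower at 0 min (median -0.58, from -1.43 to -0.13). Over all genes the median difference at 0 min was -0.004. The 0 min and later arrays of a strain may share a culture, so these counts are a description. Among the 193 high genes 6 passed as lower later (3.11%) and 2 as higher, against 0.532% lower and 0.429% higher of all genes. The lower ones were PNC1, HSP104, MRX18, HSP12, YNL134C and PBI2, and the higher ones PRY1 and CWP2. HSP104 differed by -0.96 ± 0.11 later (limma adjusted p = 0.0114) and by -0.58 at 0 min, and HSP12 by -0.76 ± 0.13 (adjusted p = 0.0414) and -0.99. PRY1, a sterol-binding protein, differed by 0.56 ± 0.09 (limma adjusted p = 0.0356) later and by 0.54 at 0 min. MRX18, HSP12, YNL134C and PRY1 did not pass whichever later array was left out, and HSP104 did not without an array of 15-16, 30 or 60 min. YLR162W, the low gene, was the other way round, at 1.09 ± 0.13 later (limma adjusted p = 0.0118) and -0.22 at 0 min, and it did not pass without an array of 15-16 or 60 min. A test of whether the strain difference at 0 min differed from the later one, over all 10 arrays, passed 0 of 5792 genes in limma (274 at an unadjusted p under 0.05, lowest adjusted p = 0.992) and 0 with limma's trend and robust moderation. None of the 0 min differences is therefore called particular to 0 min.

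The medians of the 24 genes of the Hsp90, Hsp70 and Hsf1 list at 0 min were 0.40 in the wild type and 0.00 labelled ppt1. Under the label 17 of the 24 were lower and 7 higher, with a median difference of -0.36 against -0.004 over all genes. A lean to lower values was not particular to this list. In the TCA cycle and respiration list 25 genes were lower and 5 higher, and in the proteasome list 23 and 6. Their median differences were smaller, at -0.14 and -0.12. In the Hsp90, Hsp70 and Hsf1 list 1 gene was high on both arrays, the Hsp70 nucleotide exchange factor SSE2 (1.32 and 1.21). SSA1, SSA2, STI1 and HSC82 are given as examples of the lower genes and were chosen after their values were seen. The Hsp70 genes SSA1 and SSA2 read 0.89 and -0.01 and 0.75 and -0.03, STI1, a co-chaperone that links Hsp70 with Hsp90, read 0.89 and -0.02, and HSC82, an Hsp90 gene, 0.36 and -0.45. The pairs SSA1 and SSA2, and HSC82 and HSP82, are near-identical and may share signal. On the later arrays 9 of the 24 passed as lower and 0 as higher, against 0.532% lower and 0.429% higher of all genes. The list's median was -0.37 against 0.01 over all genes. SSA2 differed by -1.15 ± 0.12 (limma adjusted p = 0.00839), SSA1 by -1.14 ± 0.13 (adjusted p = 0.0112), STI1 by -0.96 ± 0.10 (adjusted p = 0.00839) and HSC82 by -0.78 ± 0.09 (adjusted p = 0.0114). Without an array of 15-16 or 60 min 0 of the 24 passed, and without an array of 7 or 30 min 4 did. CDC37 (0.13 and 0.28), CNS1 (-0.19 and 0.46) and SSB2 (0.14 and 0.39), other chaperone genes of the list, were higher under the label at 0 min.

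The zinc list was small and ran the other way. Of 10 genes 9 were higher on the array labelled ppt1 at 0 min, with medians of -0.26 in the wild type and 0.19 labelled ppt1. Their median difference was 0.38 against -0.004 over all genes. On the later arrays 3 passed as higher (ZRT1, IZH1 and IZH2) and 0 as lower, against 0.429% higher and 0.532% lower of all genes. ZRT1, the high-affinity zinc transporter, read 0.80 and 1.63 at 0 min and differed by 0.69 ± 0.10 later (limma adjusted p = 0.028). IZH2 read -0.52 and 0.17 at 0 min and differed by 0.61 ± 0.11 later (limma adjusted p = 0.0493). Without an array of 15-16 or 60 min none of the 10 passed, without an array of 30 min 1 did, and without an array of 7 min 2 did.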

How the data were processed

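The authors deposited 1 log ratio per gene and array, unit log2 as taken here. The sources used here do not state the base, dyes, platform, background correction or normalization. Read in base 10, the highest deposited value would be a ratio of 115345, beyond the 65536 levels of a 16-bit scanner, and a natural log could not be told apart. Deposited array medians lay between -0.075 and 0.012. Each array was centred on its median, with no filter on low values. RefSeq R64 names were found for 5358 genes, and 464 kept their systematic names. No column outside the labelled samples was present.

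limma 3.58.1 in R 4.3.3 fitted time and strain to the 8 later arrays (3 residual and 5.56 prior degrees of freedom), and a term for the strain at 0 min to all 10, with Benjamini-Hochberg adjustment over all genes at 0.05. The fit was run on simulated data with independent errors between arrays. That run cannot show how the p-values behave where arrays of a strain share an error. Genes named were PPT1, the 15 highest and the low genes at 0 min, the 10 largest strain differences each way, the 5 lowest p-values each way of each later contrast among genes chosen at 0 min, and up to 4 members per list with every high or low member where 6 or fewer. Other list members and genes named were chosen after their values were seen. The members and the 35 lists were chosen with earlier results of these data known. Some list members are not in the table (such as HSP42, GSY1, RTC3, ADE8 and URA3).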

Additional observations from a re-analysis of the deposited data

How the results depend on the processing

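High genes outnumbered low ones at 0 min under each alternative, whereas the balance of the strain differences, 9 higher and 14 lower, turned to 7 higher and 3 lower with scaling to a common spread and to 8 and 8 with quantile normalization. High genes numbered 78 with quantile normalization, 295 at a threshold of 0.8, 70 at 1.5 and 365 with the values read as natural logs, and 249 and 286 on single arrays. Low genes numbered 6 without centring, 5 with quantile normalization, 20 at 0.8, 1 at 1.5, 40 as natural logs, and 23 and 26 on single arrays. Genes higher under the label numbered 34 at 0.8, 2 at 1.5 and 69 as natural logs. Genes lower under the label numbered 3 with scaling to a common spread, 8 with quantile normalization, 51 at 0.8, 0 at 1.5 and 87 as natural logs.

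For the later strain difference, 92 genes passed among those with all 10 values, 2 with no time term and 3 to 15 with an array left out, and the limma split was 12 higher and 31 lower with trend and robust moderation. For 60 against 7 min, 46 to 112 passed with an array left out. Of the high genes 24 to 48 fell with an array left out, and 1 rose without centring, 1 with scaling to a common spread, 6 with quantile normalization, 1 with complete genes and 1 with trend and robust moderation. Of the 9 upward genes 1 passed with quantile normalization, 1 with trend and robust moderation, 0 with no time term and 1 to 3 with an array left out. Of the 14 downward genes 1 passed without centring, 1 with scaling to a common spread, 1 with quantile normalization, 1 with no time term and 0 to 1 with an array left out. The test of 0 min against later passed 0 genes under each setting run. The causes were not tested.

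Some later strain estimates changed sign. AQR1 went to -0.058 with quantile normalization, and YLR345W to 0.040 with scaling to a common spread and 0.011 with quantile normalization. With an array left out, LEU2 ranged from -0.698 to 0.142, CIT2 from -0.057 to 0.117, THI73 from -0.118 to 0.191, MET17 from -0.940 to 0.144, TUS1 from -0.123 to 0.034 and YMR085W from -0.031 to 0.283. Over the named genes and alternatives, 423 estimates kept direction and side of the threshold, 120 lost the call and 17 changed sign. Of the list counts of high genes 83 stayed within 1.5 times and 57 moved. The strains were paired by time through the time term of the fit, and the labels carry no replicate numbers for any other block. The number of arrays limits every value, and signal over background is unknown here.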
